A study of Mus musculus with 35 samples.

Results

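The 6 genes described here, Prg2, Prg3, Epx, Ear1, Ear2 and Siglec5, encode proteins of the eosinophil granule and surface. They were listed by name and chosen by their RPKM values in these same 4 libraries, which were already known, so their levels are given as a description with no test. All 6 were found in the deposited RNA-seq table, which holds 11982 gene names, and all 6 had a mean of at least 0.5 RPKM, a read count scaled to transcript length and sequencing depth. That level was reached by 11863 genes, which were the genes tested.

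The libraries were made from polyA RNA of hematopoietic stem/progenitor cells (HSPCs) of mouse bone marrow, 2 from wild-type (WT) mice and 2 from JMJD1B-/- mice. The JMJD1B-/- mice carry a gene-trap knockout of Kdm3b, which encodes the histone demethylase JMJD1B, and both genotypes have the strain label 129P2xC57BL/6J. The knockout line was derived from embryonic stem cells of 129P2 background, the study used adult mice of both sexes, and the labels give neither sex nor age for a library. Whether a library held 1 mouse or a pool is not given in the sources used here, so p-values measure only the spread between these libraries, part of which may be technical. The libraries are called WT 1, WT 2, JMJD1B-/- 1 and JMJD1B-/- 2 after the number in their labels, and nothing in the labels says what a number marks.

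Eosinophils are granulocytes that arise in the bone marrow from progenitors under the control of GATA-1, C/EBP factors and PU.1, and they expand under interleukin-5. Their large granules are filled with cationic proteins. Prg2 encodes major basic protein, which forms the crystalline core of the granule, and Prg3 encodes its homologue. Epx encodes eosinophil peroxidase, which makes hypohalous acids from hydrogen peroxide. Ear1 and Ear2 belong to the rodent family of eosinophil-associated ribonucleases. Siglec5, the table's name for Siglecf, encodes Siglec-F, a sialic acid-binding inhibitory receptor by which mouse eosinophils are commonly identified. Granule proteins are made mainly while the cell is still immature in the marrow, and a mature eosinophil stores them.

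The 4 libraries differed in depth and in other genes. The estimated depth was 17500000 reads in WT 1, 24600000 in WT 2, 6100000 in JMJD1B-/- 1 and 21000000 in JMJD1B-/- 2, so both libraries numbered 1 were shallower than both numbered 2. On a transcript of 1 kb, 3 reads correspond to 0.171, 0.122, 0.491 and 0.143 RPKM in that order, and each of the 6 genes lay above these levels in every library. Kdm3b was at 31.0 and 24.3 RPKM in WT and at 4.00 and 4.63 RPKM in JMJD1B-/-, a log2 difference of -2.65 ± 0.24 (SE; limma, adjusted p = 0.0314). Xist, which is transcribed from the inactive X chromosome, was at 332 RPKM in WT 2, at 0.0510 RPKM in WT 1, at 0.0451 RPKM in JMJD1B-/- 2 and was listed at 0 in JMJD1B-/- 1. All 6 HSPC markers looked up (Kit, Cd34, Ly6a, Meis1, Mecom and Hlf) were present, with summed levels of 175, 156, 105 and 146 RPKM in WT 1, WT 2, JMJD1B-/- 1 and JMJD1B-/- 2. Ly6a was low, at 1.92, 2.96, 2.17 and 0.629 RPKM in that order. Of the 6, 3 (Cd34, Meis1 and Mecom) were lower in both JMJD1B-/- libraries, as were 22.7% of all genes tested.

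The upstream sequences of 4 of these genes are shown because the genes moved together across the libraries and because those of Ear1 and Ear2 were nearly identical. These bases lie before the transcript, and the transcripts themselves were not compared. RefSeq (GRCm38.p6) gave a promoter window for 5 of the 6 genes, Prg2 being the exception. The 250 bases before the start were searched on both strands for a GATA motif (AGATAA or TGATAA), a PU.1 motif (GAGGAAG) and a C/EBP motif (TTGCNNA). Prg3 (chr2:84987965-84988214, plus strand) held 1 GATA match 118 bases before the start. Ear1 (chr14:43819640-43819889, minus strand) and Ear2 (chr14:44102404-44102653, plus strand) each held 1 C/EBP match, 86 and 84 bases before the start. Siglec5 (chr7:43351091-43351340, plus strand) held 1 PU.1 match 60 bases before the start. The Epx window (chr11:87875537-87875786, minus strand) held no match of these 3 motifs. Capitals mark the matches, which read as the motif or as its reverse complement, and each sequence runs 5′ to 3′ toward the start.
Prg3: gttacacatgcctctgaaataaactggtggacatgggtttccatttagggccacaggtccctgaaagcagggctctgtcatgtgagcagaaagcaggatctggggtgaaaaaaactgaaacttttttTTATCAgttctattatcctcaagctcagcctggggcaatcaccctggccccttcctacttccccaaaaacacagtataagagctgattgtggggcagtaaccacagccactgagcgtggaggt
Ear1: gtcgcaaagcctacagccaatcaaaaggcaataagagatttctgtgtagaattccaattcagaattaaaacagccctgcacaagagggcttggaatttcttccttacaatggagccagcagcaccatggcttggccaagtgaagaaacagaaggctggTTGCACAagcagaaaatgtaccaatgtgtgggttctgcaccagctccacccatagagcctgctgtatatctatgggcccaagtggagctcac
Ear2: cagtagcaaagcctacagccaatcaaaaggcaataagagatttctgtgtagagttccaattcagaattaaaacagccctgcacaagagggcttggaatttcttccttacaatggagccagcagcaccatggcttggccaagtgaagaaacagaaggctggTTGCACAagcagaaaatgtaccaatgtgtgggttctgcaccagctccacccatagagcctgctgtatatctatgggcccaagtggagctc
Siglec5: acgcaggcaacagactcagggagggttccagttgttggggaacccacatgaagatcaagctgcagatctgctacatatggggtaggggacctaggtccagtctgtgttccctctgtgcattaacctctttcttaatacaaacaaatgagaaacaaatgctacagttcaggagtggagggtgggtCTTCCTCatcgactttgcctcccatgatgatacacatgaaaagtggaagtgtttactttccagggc

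Of 32851 RefSeq windows of the same length, 16.6% held the GATA motif, 10.6% the PU.1 motif and 32.8% the C/EBP motif, so no motif was rare and none was shared by all 5 windows. The Ear1 and Ear2 windows were identical at 246 of 248 aligned bases, or 99.2%. Ear10 and Ear6, ribonuclease genes of the same family on the same chromosome, had windows 93.9% and 92.6% identical to that of Ear1. Prg2 and Prg3 are direct neighbours on chromosome 2, and Ear1 and Ear10 are direct neighbours on chromosome 14.

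Prg2 was among the most abundant transcripts of these HSPC libraries. Its level was 5377 RPKM in WT 1, 988 RPKM in WT 2, 4328 RPKM in JMJD1B-/- 1 and 1077 RPKM in JMJD1B-/- 2. The 2 libraries numbered 1 lay above the 2 numbered 2, with WT and JMJD1B-/- overlapping. Among all names in the table it ranked 4 in WT 1 and in JMJD1B-/- 1, 41 in WT 2 and 55 in JMJD1B-/- 2. The mean was 3183 ± 3103 RPKM in WT and 2703 ± 2299 RPKM in JMJD1B-/- (SD, n = 2), so the SD nearly equalled the mean in both genotypes.

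Prg3, the homologue of major basic protein, was also higher in both libraries numbered 1, at a lower level. It measured 91.5 RPKM in WT 1, 17.8 RPKM in WT 2, 67.5 RPKM in JMJD1B-/- 1 and 12.5 RPKM in JMJD1B-/- 2. Unlike Prg2, it was lower in JMJD1B-/- 2 than in WT 2. Prg2 exceeded Prg3 per kilobase by 58.7 times in WT 1, 55.5 times in WT 2, 64.2 times in JMJD1B-/- 1 and 86.2 times in JMJD1B-/- 2. The ratio of these neighbouring genes therefore varied 1.55-fold between libraries, less than the level of either gene.

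Epx, the peroxidase, stood at 189 RPKM in WT 1, 52.9 RPKM in WT 2, 124 RPKM in JMJD1B-/- 1 and 35.9 RPKM in JMJD1B-/- 2. Within each number the JMJD1B-/- library was the lower one, yet JMJD1B-/- 1 lay above WT 2 and the genotypes overlapped. The mean was 121 ± 96.4 RPKM in WT and 79.8 ± 62.0 RPKM in JMJD1B-/- (SD, n = 2). Prg2 was 28.4, 18.7, 35.01 and 29.98 times as high as Epx in WT 1, WT 2, JMJD1B-/- 1 and JMJD1B-/- 2.

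Ear1 had the widest spread of the 6 genes as a fold between its extremes, though not in RPKM, in which Prg2 spread more. It was at 179.8 RPKM in WT 1, 45.6 RPKM in WT 2, 449.9 RPKM in JMJD1B-/- 1 and 43.2 RPKM in JMJD1B-/- 2. JMJD1B-/- 1 had the highest value and JMJD1B-/- 2 the lowest, on either side of both WT libraries. The mean was 113 ± 94.9 RPKM in WT and 247 ± 288 RPKM in JMJD1B-/- (SD, n = 2).

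Ear2 gave nearly the same values as Ear1, with 167 RPKM in WT 1, 40.1 RPKM in WT 2, 388 RPKM in JMJD1B-/- 1 and 39.4 RPKM in JMJD1B-/- 2. The ratio of Ear1 to Ear2 was 1.08, 1.14, 1.16 and 1.10 in WT 1, WT 2, JMJD1B-/- 1 and JMJD1B-/- 2, a coefficient of variation of 3.26%. How the authors assigned reads that match more than 1 gene is not given in the sources used here, and the 2 transcripts were not compared. The separate levels of Ear1 and Ear2 are therefore uncertain.

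Siglec5, the surface receptor, was the least abundant of the 6 genes. Its level was 7.19 RPKM in WT 1, 3.08 RPKM in WT 2, 6.66 RPKM in JMJD1B-/- 1 and 2.12 RPKM in JMJD1B-/- 2. It gave the same order of libraries as Prg3 and Epx, in the lower part of the table, with ranks between 7137 and 9801. The mean was 5.13 ± 2.91 RPKM in WT and 4.39 ± 3.21 RPKM in JMJD1B-/- (SD, n = 2).

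**Figure D1:**
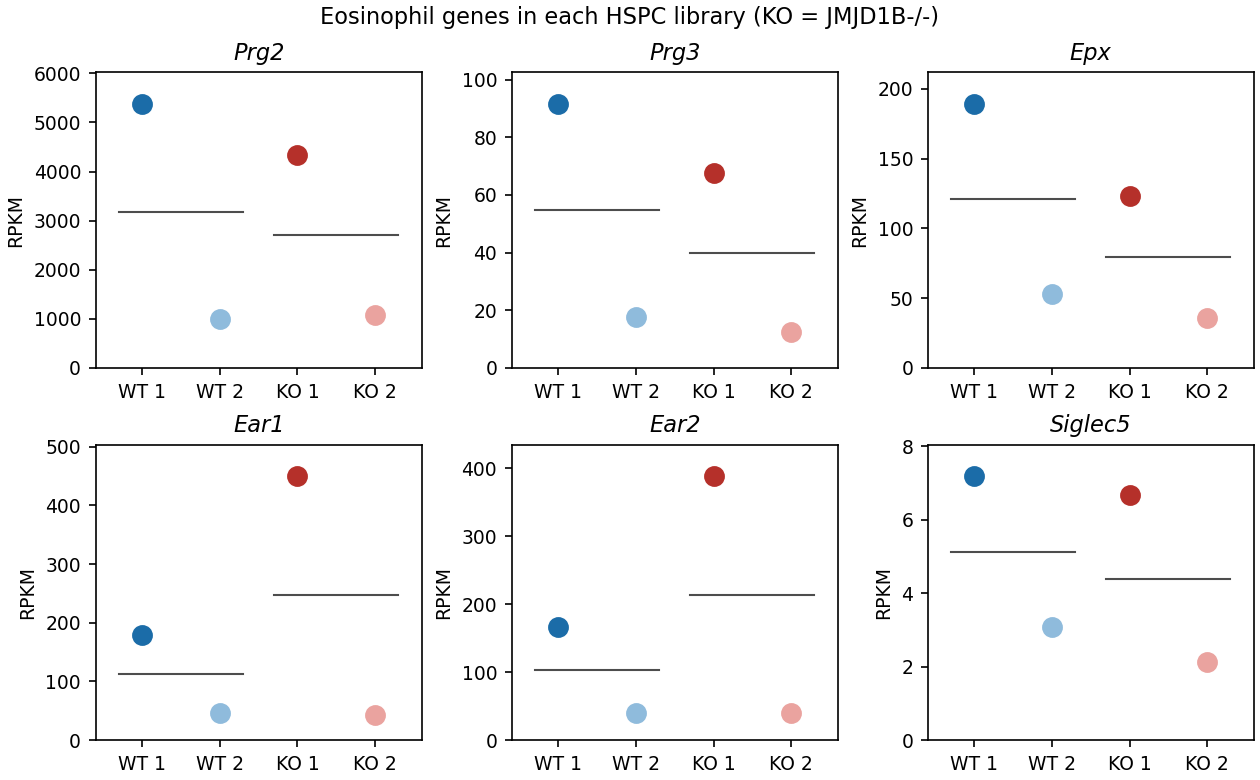
RPKM of Prg2, Prg3, Epx, Ear1, Ear2 and Siglec5 (vertical axes, linear, each from 0) in the 4 HSPC libraries (horizontal axis, KO standing for JMJD1B-/-), with 1 point per library and a line at the mean of each genotype. In every panel the points of WT 1 and KO 1 lie above those of WT 2 and KO 2, and KO 1 exceeds WT 1 only for Ear1 and Ear2.

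The order of mean levels over the 4 libraries was Prg2 (2943 RPKM), Ear1 (179.6 RPKM), Ear2 (159 RPKM), Epx (100.4 RPKM), Prg3 (47.3 RPKM) and Siglec5 (4.76 RPKM). In each library Prg2 was the highest and Siglec5 the lowest of the 6. Epx, Ear1 and Ear2 did not keep their order, since Epx was above both ribonuclease genes in WT 1 and WT 2 and below both in JMJD1B-/- 1 and JMJD1B-/- 2. Ear1 was 0.950 and 0.861 times as high as Epx in WT 1 and WT 2, and 3.64 and 1.20 times as high in JMJD1B-/- 1 and JMJD1B-/- 2.

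The first comparison was by library number, which the choice of these genes had already used. All 6 genes were higher in both libraries numbered 1 than in both numbered 2, as were 1098 of the 11863 genes tested (9.26%). WT 1 exceeded WT 2 by 2.34-fold for Siglec5 to 5.44-fold for Prg2, and JMJD1B-/- 1 exceeded JMJD1B-/- 2 by 3.14-fold for Siglec5 to 10.4-fold for Ear1. The difference was over 2-fold in both genotypes for 6 of 6 genes and for 98 of all genes tested (0.826%). Nothing is read from these shares for the 6 genes, since their pattern over the libraries was known when they were listed.

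On the log2(RPKM + 0.1) scale, on which all log2 differences are given, the mean difference between number 1 and number 2 was 2.23 for Prg2, 2.39 for Prg3, 1.81 for Epx, 2.68 for Ear1, 2.67 for Ear2 and 1.40 for Siglec5. The median over the 6 genes was 2.31, against -0.10 over all genes tested. In WT alone the median over the 6 genes was 2.01 and in JMJD1B-/- alone 2.21. Prg2, Prg3 and Epx differed by similar amounts in the 2 genotypes, for example 1.84 in WT and 1.78 in JMJD1B-/- for Epx. Ear1 and Ear2 differed by 1.98 and 2.05 in WT and by 3.38 and 3.30 in JMJD1B-/-. In bulk RNA, fewer cells of a type and less RNA per cell cannot be told apart. Depth moved with the number as well, and its part in these differences was not tested.

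**Figure D2:**
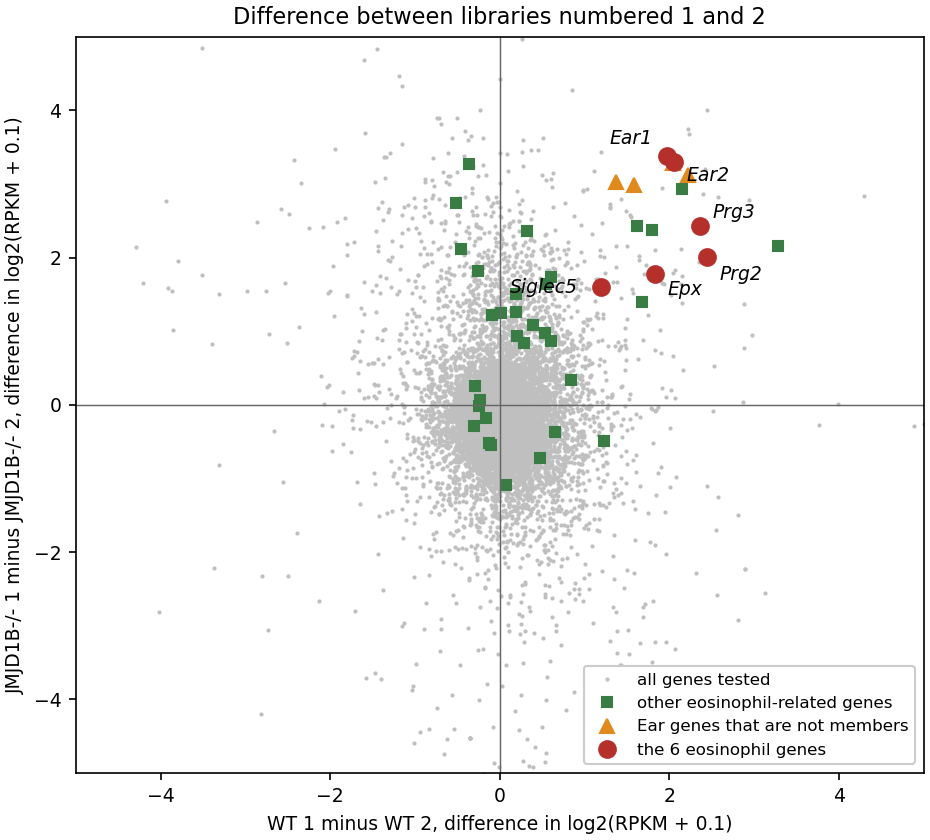
Difference in log2(RPKM + 0.1) between WT 1 and WT 2 (horizontal axis) and between JMJD1B-/- 1 and JMJD1B-/- 2 (vertical axis), with 1 grey point per gene tested, the 6 eosinophil genes as red circles, the other Ear genes as orange triangles and other eosinophil-related genes as green squares. The 6 red circles and the Ear triangles lie in the upper right, above 1 on both axes, while the median of all genes is near 0 on both (-0.01 and -0.18); 9 genes lie outside the drawn range.

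The second comparison was by genotype, the contrast for which the study made the libraries. The 2 genotypes overlapped for all 6 genes, so 0 of the 6 had both JMJD1B-/- libraries on the same side of both WT libraries, as 42.9% of the genes tested did (22.7% with JMJD1B-/- below and 20.1% with it above). Nothing is read from this count, since genes higher in both libraries numbered 1 must overlap between genotypes. The log2 difference of JMJD1B-/- to WT was -0.09 for Prg2, -0.47 for Prg3, -0.59 for Epx, -0.31 for Siglec5, 0.62 for Ear1 and 0.60 for Ear2. The median of -0.20, against -0.02 over all genes tested, depended on which library was used. It was 0.92 without WT 1, -1.11 without WT 2, -1.11 without JMJD1B-/- 1 and 0.82 without JMJD1B-/- 2.

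Within a number, the genotypes gave a different picture for the ribonuclease genes than for the rest. JMJD1B-/- 1 was at 0.805 times the level of WT 1 for Prg2, 0.737 times for Prg3, 0.653 times for Epx and 0.927 times for Siglec5. The same pair of libraries gave 2.50 times for Ear1 and 2.33 times for Ear2, so 4 genes were lower and 2 higher in the knockout library. Between JMJD1B-/- 2 and WT 2 the ratios were 1.09 for Prg2, 0.702 for Prg3, 0.679 for Epx, 0.691 for Siglec5, 0.948 for Ear1 and 0.982 for Ear2. Prg3 and Epx thus gave similar ratios in both pairs, whereas Ear1 and Ear2 were higher in JMJD1B-/- in 1 pair and near equal in the other. These are single-library ratios with no replicate check, and JMJD1B-/- 1 was the shallowest library.

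The other ribonuclease genes of the family followed Ear1 and Ear2. Of the 11 names looked up, Ear3, Ear6, Ear7, Ear10 and Ear12 were in the table. Ear3 and Ear12 carried identical values in every library, 224 RPKM in WT 1, 54.2 RPKM in WT 2, 522 RPKM in JMJD1B-/- 1 and 53.4 RPKM in JMJD1B-/- 2, so they count as 1 measurement. Ear10 was at 149 RPKM in WT 1, 31.9 RPKM in WT 2, 308 RPKM in JMJD1B-/- 1 and 35.4 RPKM in JMJD1B-/- 2. Ear6 and Ear7, named after their values were seen, were at 48.0 and 66.2 RPKM in WT 1, 18.6 and 22.0 RPKM in WT 2, 144 and 165 RPKM in JMJD1B-/- 1, and 17.5 and 20.9 RPKM in JMJD1B-/- 2.

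Across all 7 Ear genes, JMJD1B-/- 1 was between 2.07 and 2.99 times as high as WT 1, and JMJD1B-/- 2 was between 0.940 and 1.11 times as high as WT 2. All 7 were higher in both libraries numbered 1, against 9.26% of all genes tested, and 2 of the 7 were chosen with this pattern known. None of the 5 that were not listed at the outset passed limma's test between genotypes, with log2 differences of 0.60 ± 1.02 (SE) for Ear3 and Ear12 (adjusted p = 0.878) and 0.60 ± 1.01 for Ear10 (adjusted p = 0.876). Their sign and call rested on single libraries: they were -1.04 and -0.96 without JMJD1B-/- 1, -0.42 and -0.51 without WT 2, and 2.24 and 2.16 without JMJD1B-/- 2, the last at an unadjusted p under 0.05. With the library number added to the fit, all 5 were higher at an unadjusted p under 0.05, as were 571 of all 11863 genes tested. None of the 5 passed after adjustment in that fit. With reads possibly shared between them, the 7 genes are not 7 independent measurements.

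**Figure D3:**
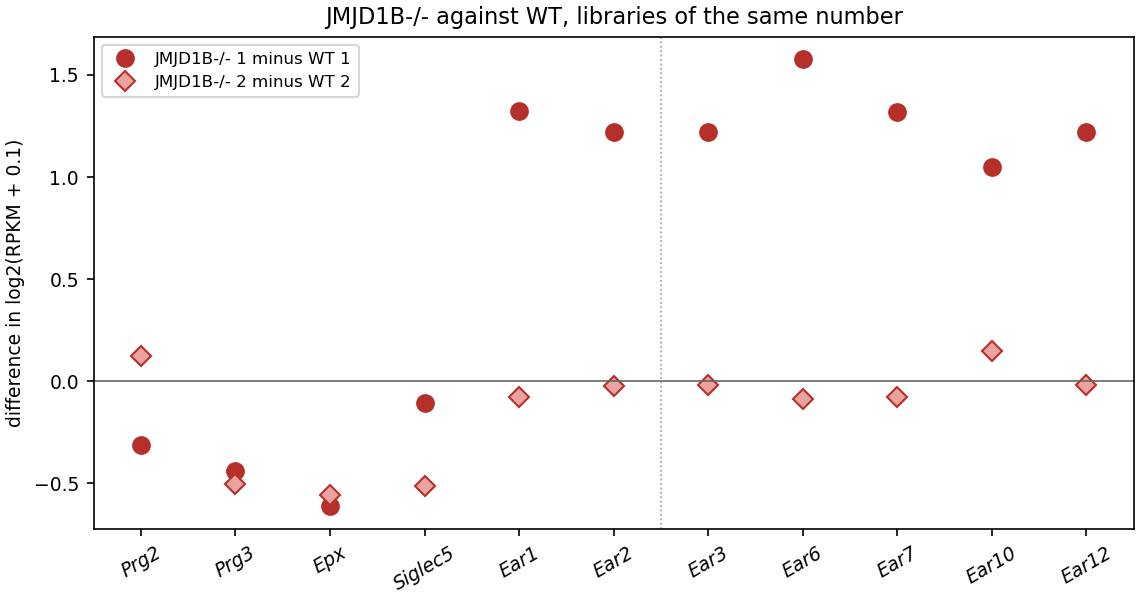
Difference in log2(RPKM + 0.1) between the JMJD1B-/- and the WT library of the same number (vertical axis) for 11 genes (horizontal axis), the 6 listed genes left of the dotted line and 5 further Ear genes right of it; red circles stand for number 1 and pale diamonds for number 2. All 7 Ear genes lie above 1 in number 1 and near 0 in number 2, while Prg2, Prg3, Epx and Siglec5 lie below 0 in number 1.

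Genes that act with the granule proteins in eosinophils or their development were then looked up from a list of 46 names in 6 roles, of which 38 were in the table and all 38 were tested. The list was fixed with earlier results of these data known, so its shares are a description. At an unadjusted p under 0.05 (limma), 10 of the 38 (26.3%) were lower in JMJD1B-/-, against 6.33% of all genes tested, and 1 (2.63%) was higher, against 3.81%. In either direction 10.1% of all genes passed. None of the 38 passed at an adjusted p under 0.05, the lowest being 0.0768, and of all genes 4 were lower (0.0337%) and 1 higher (0.00843%) at that level. With the library number added to the fit 6 of the 38 passed, and the count for all genes was not made. The median log2 difference over the 38 genes was -0.35. The counts moved when single libraries were left out, as did those of all genes tested. Such a fit leaves 1 library in a genotype, so its counts are not given here.

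By library number, 15 of the 38 (39.5%) were higher in both libraries numbered 1 and 3 (7.89%) were lower in both, against 9.26% and 20.3% of all genes tested. Without the Ear genes, 10 of 33 (30.3%) were higher. The genes over 2-fold higher in number 1 in both genotypes were the 5 Ear genes, Il5ra, Cebpe, Alox15, Emr1 and Emr4, which makes 10 of 38 (26.3%) against 0.826%. Il5ra, Cebpe, Emr1, Ear6 and Ear7 are named after their values were seen, these shares are a description, and Ear3 and Ear12, which share 1 set of values, enter each of these counts as 2 genes.

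Among the receptors, Il5ra, the interleukin-5 receptor subunit that gives eosinophils their response to the cytokine, gave the same order of libraries as Prg3, Epx and Siglec5. It was at 3.91 RPKM in WT 1, 1.15 RPKM in WT 2, 2.43 RPKM in JMJD1B-/- 1 and 0.865 RPKM in JMJD1B-/- 2. Its partner Csf2rb, the common beta chain of the interleukin-3, interleukin-5 and GM-CSF receptors, separated by genotype instead, at 24.99 and 17.1 RPKM in WT and 12.0 and 3.77 RPKM in JMJD1B-/-. The log2 difference of Csf2rb was -1.60 ± 0.50 (SE; limma, adjusted p = 0.386), with -2.43 without JMJD1B-/- 1 and -0.78 without JMJD1B-/- 2.

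The related beta chain gene Csf2rb2 gave -1.47 ± 0.47 (adjusted p = 0.395), with -2.22 without JMJD1B-/- 1 and -0.71 without JMJD1B-/- 2. Il3ra, the interleukin-3 receptor alpha chain, gave -1.15 ± 0.31 (adjusted p = 0.320). Csf2ra, the GM-CSF receptor alpha chain, gave -0.41 ± 0.41 (adjusted p = 0.766) and Il1rl1, the interleukin-33 receptor, 0.16 ± 0.26 (adjusted p = 0.864). Csf2ra gave 0.20 without WT 1 and -1.03 without WT 2, the latter at an unadjusted p under 0.05, and Il1rl1 gave -0.11 without JMJD1B-/- 2. Hrh4, a histamine receptor, was at 1.32 and 1.58 RPKM in WT, was listed at 0 in JMJD1B-/- 1 and stood at 0.00121 RPKM in JMJD1B-/- 2, below the level of 3 reads on 1 kb. Of 8 receptors tested, 4 were lower at an unadjusted p under 0.05 (Csf2rb, Csf2rb2, Il3ra and Hrh4), against 6.33% of all genes. None of the 4 stayed under it without WT 1, and Csf2rb2 and Hrh4 did not without WT 2. Ccr3, the eotaxin receptor of mature eosinophils, was named after its values were seen and was not higher in both libraries numbered 1, at 1.70, 2.47, 5.502 and 0.741 RPKM in WT 1, WT 2, JMJD1B-/- 1 and JMJD1B-/- 2.

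Of 12 transcription factors of the lineage, 2 were higher in both libraries numbered 1, 1 was lower in both and 9 overlapped by number, against 9.26% higher and 20.3% lower of all genes. Cebpe, which drives late granulocyte maturation and was named after its values were seen, was at 6.59 RPKM in WT 1, 0.591 RPKM in WT 2, 7.30 RPKM in JMJD1B-/- 1 and 1.56 RPKM in JMJD1B-/- 2, higher in both libraries numbered 1. Cebpa, required for entry into the granulocyte lineages, was at 13.4 and 12.7 RPKM in WT and 1.05 and 2.36 RPKM in JMJD1B-/-, and overlapped by number. Its log2 difference was -2.96 ± 0.41 (SE; limma, adjusted p = 0.0768).

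Gata1, which both the eosinophil and the erythroid lineage require, was at 32.8 and 35.9 RPKM in WT and 44.5 and 63.6 RPKM in JMJD1B-/-, a log2 difference of 0.63 ± 0.22 (adjusted p = 0.425). Gata2 gave -0.77 ± 0.28 (adjusted p = 0.435), Irf8, a factor of the monocyte lineage, -1.50 ± 0.51 (adjusted p = 0.420), and Zfpm1, the GATA-1 cofactor, 0.06 ± 0.18 (adjusted p = 0.934). Without JMJD1B-/- 1 the values were -2.42 for Irf8, -0.41 for Gata2 and 0.89 for Gata1, and without JMJD1B-/- 2 they were -0.59, -1.13 and 0.37. Id1, an inhibitor of helix-loop-helix factors, gave -1.30 ± 0.56 (adjusted p = 0.491), with -1.79 without JMJD1B-/- 1 and -0.81 without JMJD1B-/- 2. At an unadjusted p under 0.05, 3 of 12 factors were lower (Cebpa, Gata2 and Irf8) and 1 was higher (Gata1), against 6.33% and 3.81% of all genes. Of these 4, Cebpa alone stayed under it whichever library was left out: Gata2 did not without WT 1 or JMJD1B-/- 1, Irf8 did not without WT 1 or WT 2, and Gata1 did not without WT 1, WT 2 or JMJD1B-/- 2. Zfpm1 changed sign under quantile normalization (-0.0227), without WT 1 (-0.0221) and without JMJD1B-/- 2 (-0.0285).

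Of the 3 enzymes of lipid mediator synthesis tested, 1 was higher in both libraries numbered 1, against 9.26% of all genes. This was Alox15, the lipoxygenase of eosinophils, at 40.6 RPKM in WT 1, 13.2 RPKM in WT 2, 54.0 RPKM in JMJD1B-/- 1 and 9.98 RPKM in JMJD1B-/- 2, with a log2 difference between genotypes of 0.01 ± 0.78 (limma, adjusted p = 0.998). That difference was -0.0236 under quantile normalization, -1.21 without JMJD1B-/- 1 and 1.22 without JMJD1B-/- 2, the last pair each at an unadjusted p under 0.05. Alox5, which starts leukotriene synthesis and is shared with other myeloid cells, was at 21.1 and 16.0 RPKM in WT and 7.80 and 3.64 RPKM in JMJD1B-/-. Its log2 difference was -1.77 ± 0.37 (adjusted p = 0.209), and its partner Alox5ap gave -0.65 ± 0.30 (adjusted p = 0.521). Without JMJD1B-/- 1 Alox5ap gave -1.12, at an unadjusted p under 0.05, and without JMJD1B-/- 2 it gave -0.18.

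Of the 8 surface and adhesion genes, 6 were higher in both libraries numbered 1 and 1 was lower in both, against 9.26% and 20.3% of all genes. Emr1 and Emr4, adhesion receptors of eosinophils and macrophages, were at 5.05 and 2.79 RPKM in WT 1, 1.06 and 0.731 RPKM in WT 2, 13.0 and 3.23 RPKM in JMJD1B-/- 1, and 1.61 and 0.542 RPKM in JMJD1B-/- 2. Emr1 was named after its values were seen. C3ar1, a complement receptor, was at 1.83 and 1.17 RPKM in WT and 0.305 and 0.122 RPKM in JMJD1B-/- (limma, adjusted p = 0.433), the latter under the level of 3 reads on 1 kb, and its unadjusted p was not under 0.05 without WT 1 or without WT 2. Itga4, an integrin chain, was lower in both libraries numbered 1, with a log2 difference between genotypes of 0.13 ± 0.20 (adjusted p = 0.851). Itgb7, with which it pairs, gave -0.19 ± 0.37 (adjusted p = 0.894) and the tetraspanin Cd9 -0.21 ± 0.29 (adjusted p = 0.834). The sign of Itga4 turned without WT 1 (-0.0169) and that of Itgb7 and Cd9 without JMJD1B-/- 2 (0.44 and 0.21). Without JMJD1B-/- 1 they were -0.81 and -0.63, and of these 4 values all but the 0.21 of Cd9 were under an unadjusted p of 0.05, so Itgb7 passed in opposite directions.

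The 2 general granule components looked up both overlapped by number. Srgn, whose proteoglycan packs cationic proteins in the granules of several blood cells, was at 191 RPKM in WT 1, 235 RPKM in WT 2, 189.6 RPKM in JMJD1B-/- 1 and 159 RPKM in JMJD1B-/- 2, a log2 difference of -0.29 ± 0.20 (limma, adjusted p = 0.654). The difference for Srgn was -0.44 without WT 1 and -0.14 without WT 2. Under quantile normalization it was -0.43 (limma, unadjusted p = 0.0491). Cd63, a membrane protein of secretory granules, was at 35.04 RPKM in WT 1, 19.6 RPKM in WT 2, 14.5 RPKM in JMJD1B-/- 1 and 11.5 RPKM in JMJD1B-/- 2, higher in number 1 within each genotype. Its log2 difference between genotypes was -1.02 ± 0.30 (adjusted p = 0.361), and -0.60 without WT 1, where its unadjusted p was not under 0.05.

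Markers of other blood cells were summed in each library from fixed lists and set beside the eosinophil markers. The 9 eosinophil markers, the 6 genes included, summed to 6058 RPKM in WT 1, 1165 RPKM in WT 2, 5426 RPKM in JMJD1B-/- 1 and 1222 RPKM in JMJD1B-/- 2, most of it from Prg2. Of the 9, 8 were higher in both libraries numbered 1, against 9.26% of all genes, Ccr3 being the exception; 6 of the 9 are the genes chosen with this pattern known. The 4 genes of the neutrophil primary granule summed to 256 and 175 RPKM in WT and to 59.6 and 28.6 RPKM in JMJD1B-/- 1 and 2, and all 4 were lower in both JMJD1B-/- libraries, as were 22.7% of all genes. The ratio of Epx to Mpo, the peroxidase genes of eosinophils and neutrophils, was 1.44 in WT 1, 0.670 in WT 2, 5.77 in JMJD1B-/- 1 and 2.97 in JMJD1B-/- 2, with Mpo at 131, 79.0, 21.4 and 12.1 RPKM.

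The basophil list, from a lineage close to that of eosinophils, had all 6 of its genes lower in both JMJD1B-/- libraries and none ordered by number, with sums of 474 and 550 RPKM in WT and 98.2 and 42.2 RPKM in JMJD1B-/-. Of all genes, 22.7% were lower in both JMJD1B-/- libraries and 20.1% higher in both. The 7 erythroid genes were all higher in both JMJD1B-/- libraries, summing to 368 and 568 RPKM in WT and 1135 and 1676 RPKM in JMJD1B-/-. None of 4 mast cell markers was in the table. Of 6 monocyte-macrophage markers 5 were present, of which 2 were higher and 1 was lower in both libraries numbered 1, against 9.26% and 20.3% of all genes, with sums of 111, 113, 96.0 and 33.7 RPKM in WT 1, WT 2, JMJD1B-/- 1 and JMJD1B-/- 2. The 4 megakaryocyte genes summed to 523 and 454 RPKM in WT and 182 and 296 RPKM in JMJD1B-/-, with 2 of them (Pf4 and Itga2b) lower in both JMJD1B-/- libraries and the others overlapping.

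Late neutrophil genes, 5 of 7 present, summed to 12.5 and 6.65 RPKM in WT and 22.8 and 24.5 RPKM in JMJD1B-/-. Of these, 3 were higher in both JMJD1B-/- libraries, against 20.1% of all genes, and Camp was listed at 0 in WT 2 and JMJD1B-/- 1. Lymphoid markers were low, with 1 of 5 B cell genes present at 0.631 to 3.28 RPKM. The 3 T cell genes present of 4 summed to 3.82 and 5.03 RPKM in WT and 24.3 and 6.30 RPKM in JMJD1B-/-, 2 of them higher in both JMJD1B-/- libraries, against the same 20.1%. The part of other cells in the values of the 6 genes was not tested.

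**Figure D4:**
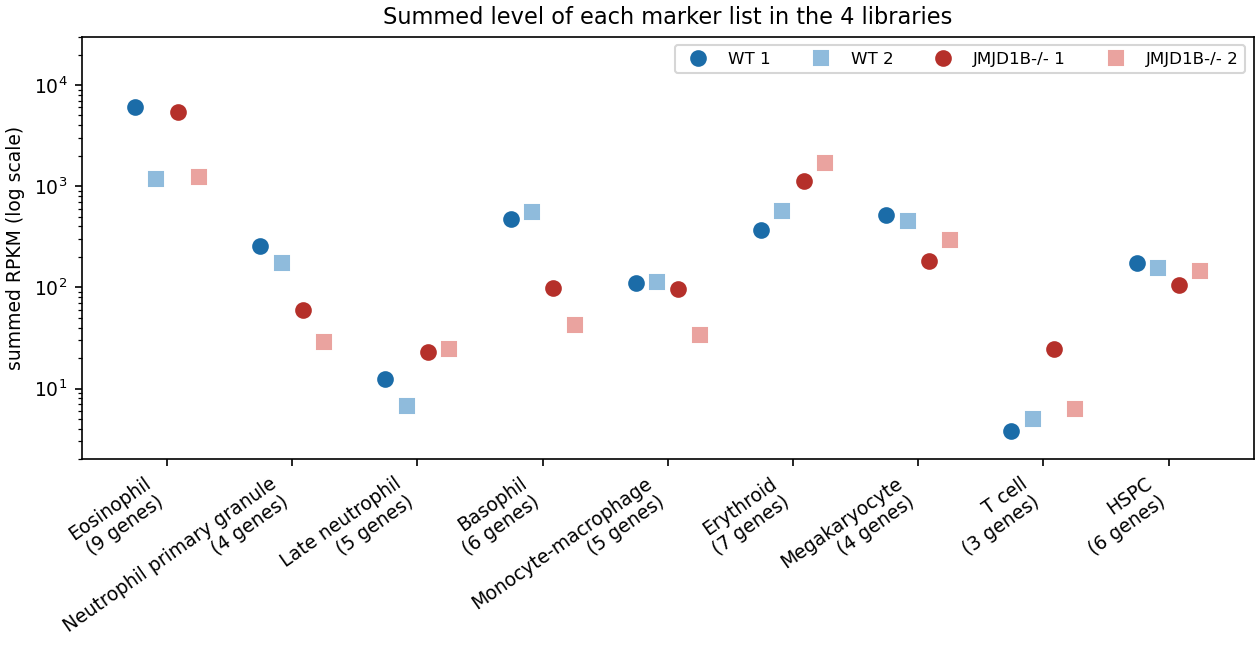
Summed RPKM (vertical axis, log scale) of 9 lists of marker genes (horizontal axis) in the 4 HSPC libraries, with 1 point per library. For eosinophils WT 1 (6058 RPKM) and JMJD1B-/- 1 (5426 RPKM) lie above WT 2 (1165 RPKM) and JMJD1B-/- 2 (1222 RPKM), whereas the sums of the other 8 lists drawn do not overlap between genotypes.

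The genes whose pattern was most like that of the 6 were ranked by the Euclidean distance between their centred log2 values over the 4 libraries and the mean profile of the 6 genes. Over 11207 other genes the median distance was 2.37. Among the 8 nearest were Emr4 (0.137), Ldhc (0.237), Alox15 (0.259), Lin28a (0.439), Gapt (0.442), Tox (0.468) and Chst13 (0.575). The 6 genes themselves lay between 0.442 (Prg2) and 0.950 (Ear1) from their own mean, so these 8 lay no farther from it than the farthest of the 6. Gapt, an adaptor-binding membrane protein of blood cells, was at 23.8 RPKM in WT 1, 4.59 RPKM in WT 2, 21.7 RPKM in JMJD1B-/- 1 and 5.59 RPKM in JMJD1B-/- 2. It shared with Prg2 the high levels in both libraries numbered 1, at a much lower level throughout. The ranking rests on 4 libraries and is a description of them.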

How the data were processed

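Expression in the 4 HSPC libraries was read from 1 deposited table of RPKM values, to which the authors had added 1, and RPKM was taken as the value minus 1. The submitters' processing notes name TopHat2, Novoalign and mm9 with no role; the counting program and annotation are not given in the sources used here. The table holds genes that reach 1 RPKM in some library, with 12024 entries for 11982 names; 42 names with more than 1 entry (84 entries) were averaged. No column belonged to another sample. The 31 ChIP samples of the 35 were not used.

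Depth was estimated as the one at which 54 low genes gave near whole numbers of reads in every library. It assumes that their values count whole reads, which other low values need not do. The levels given for 3 reads cover counting error only. Genotypes were compared with limma 3.58.1 (R 4.3.3) on log2(RPKM + 0.1) with a variance trend, two-sided, for 11863 genes with a mean of at least 0.5 RPKM, with Benjamini-Hochberg adjustment over all of them. The fit was tested on simulated data. The 6 genes received no test, and an exact permutation test of 2 against 2 cannot go below p = 0.333. The members, lists and tests were chosen with earlier results of these data known. Related genes were named from each role as the 3 of highest mean RPKM, those with an adjusted p under 0.05, and those with non-overlapping genotypes or numbers and a log2 fold change over 1 in size. Genes of the likeness ranking, Emr4 among them, were named by that ranking. Other names are said to be chosen after seeing values. Alternatives were pseudocounts of 1 and 0.01, no filter or a mean of 1 RPKM, median-ratio and quantile scaling, no variance trend, a gene-by-gene test, the replicate number as a block, and leaving out each library. Promoter windows came from RefSeq GRCm38.p6 by symbol; the table carries no coordinates. A gene of the likeness ranking is not reported here.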

Additional observations from a re-analysis of the deposited data

How the results depend on the processing

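The 6 eosinophil genes were higher in number 1 than in number 2 in both genotypes under both other pseudocounts and both other scalings, and in the 1 genotype that can be compared when a library is left out, with a median log2 difference of 2.01 to 2.40; no other alternative was run on them. Their median difference between genotypes lay between -0.21 and -0.15 with all 4 libraries and between -1.11 and 0.92 when 1 library was left out. Among all genes tested, 751 were lower and 452 higher in JMJD1B-/- at an unadjusted p under 0.05 (62.4% lower), against 714 lower and 666 higher under quantile normalization (51.7% lower); leaving out 1 library gave 177 to 1819 lower and 123 to 1258 higher. Of the eosinophil-related genes, 2 to 20 were lower, 0 to 12 higher and 0 to 14 passed after adjustment when 1 library was left out, where the lone library is assumed to vary like the others. The gene-by-gene test gave 3 of them lower and 0 higher, against 512 and 348 of all 11863 genes. Limma without a trend gave 0 of them higher, against 346 of all genes. A pseudocount of 1 gave 1 gene after adjustment, Cebpa (adjusted p = 0.0402). The libraries share only a number: the correlation of deviations between same-numbered libraries was -0.05 over 11863 genes and 2 pairs. With the replicate number as a block, 12 related genes were lower, 6 were higher (Ear3, Ear6, Ear7, Ear10, Ear12 and Gata1) and 6 passed after adjustment (Alox5, Cd63, Cebpa, Csf2rb, Csf2rb2 and Irf8), and 914 of all genes were lower and 571 higher. How many of all genes passed after adjustment in that fit was not counted, so nothing is read from the 6. Of 323 values of other named genes under an alternative, 259 kept their sign and their side of an unadjusted p of 0.05, 29 lost it, 17 gained it and 18 reversed. The log2 differences that reversed were those of Zfpm1 (-0.0227) and Alox15 (-0.0236) under quantile normalization and, when 1 library was left out, those of Ear3 and Ear12 (-1.04 to 2.24), Ear10 (-0.96 to 2.16), Csf2ra (-1.03 to 0.20), Il1rl1 (-0.11 to 0.44), Zfpm1 (-0.0285 to 0.15), Alox15 (-1.21 to 1.22), Itga4 (-0.0169 to 0.28), Itgb7 (-0.81 to 0.44) and Cd9 (-0.63 to 0.21); the cause was not tested beyond there being fewer libraries. Depth limits JMJD1B-/- 1 most, at an estimated 6100000 reads.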
